A study of Mus musculus with 46 samples.

Results

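Claudin and tight junction genes were read in 23 mouse lines that included spermatogonial stem cell cultures and pluripotent lines made from them. The set holds the claudins, the MARVEL proteins occludin and its relatives, the junctional adhesion molecules, Epcam, the zonula occludens and cingulin scaffolds, and the Crumbs and Par polarity proteins. Members were the genes whose symbol matched one of these family names in the array annotation, and each gene was read from its probe set with the highest mean. This gave 44 of 19938 genes, of which 23 were claudins, 4 MARVEL proteins, 4 adhesion molecules (F11r, Jam2, Jam3 and Epcam), 4 scaffolds and 9 polarity proteins. The name covers more than the strands of the tight junction, since Epcam and the polarity proteins also act elsewhere in the cell.

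The arrays compared GS cells, which are germline stem cell cultures of the testis, with pluripotent lines that arose or were made from GS cells and with embryo-derived and induced pluripotent cells. The 3 Sox2 mGS lines and the 3 Oct4 mGS lines were GS cells given a lentiviral Sox2 or Oct4 together with a p53 knockdown. The 3 Dnmt mGS lines carried lentiviral knockdowns of p53 and Dnmt1, and the 3 Dmrt mGS lines carried knockdowns of p53 and Dmrt1. The 2 mGS lines had become pluripotent spontaneously in GS culture. GS cells (3 lines) were the untransformed cultures. The 3 iPS lines (1, 2 and 5) carried retroviral Oct4, Sox2, Klf4 and c-myc. The GS cells, every mGS type and the iPS cells came from the DBA/2 strain, and the GFP transgene of that stock was part of the label. The 3 ES lines differed in strain: R1 was a 129 hybrid (129S1/SV-+p+Tyr-cKitlSl-J/+ with 129X1/SvJ), B6-6 was C57BL/6J and BRC1 came from a (B6xDBA2)x129 cross. Each line was cultured in duplicate and each culture was hybridised to 1 array, so a line value below is the mean of 2 cultures on the log2 scale, turned back to intensity. All lines grew on mouse embryonic fibroblast feeders, which were reduced before lysis by a short plating on gelatin. GS cells were kept in StemPro-34 medium with GDNF and FGF2 and all other lines in serum-containing DMEM with LIF, so cell type and medium cannot be told apart in any comparison with GS.

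Intensities ran from 16 to 27420 over 46 arrays, and array medians ran from 215 to 242 except for 265 in culture 1 of Oct4 mGS line 1. A gene was counted as above background when a group mean exceeded 165, the 95th percentile of 1015 olfactory receptor genes. Of the targeted genes, Dnmt1 read 620.0, 2752 and 647 in the 3 Dnmt mGS lines, against 1934 to 3132 in the other 20 lines, so the line labelled Dnmt mGS 2 showed no lowered Dnmt1. Dmrt1 read 191, 413 and 554 in Dmrt mGS and 4219.5, 3400.2 and 3379 in GS, and 151 to 665 over all 20 lines other than GS. Sox2 read 1253, 1302 and 1303 in Sox2 mGS, below every other mGS, iPS and ES line, and 1807, 331 and 293 in GS. Pou5f1, which encodes Oct4, read 5248, 4649 and 4660.0 in Oct4 mGS and 1000.1, 365 and 381 in GS. GS line 1 therefore held more Sox2 and Pou5f1 signal than the other GS lines. A feeder score, the mean over 17 fibroblast genes, was 1454 to 2087 in Sox2 mGS, 660.4 to 1615 in Oct4 mGS, 199 to 1365 in Dnmt mGS, 205 to 1074 in Dmrt mGS, 279 to 984 in mGS, 226 to 666 in GS, 282 to 400.3 in iPS and 359 to 1152 in ES. All 17 fibroblast genes were above background in every group except GS (15) and iPS (14). The group labels held in lists of marker genes: 13 spermatogonial genes averaged 3097 in GS and 327 to 371 in the other groups, and 11 pluripotency genes averaged 198 in GS, 1136 in Sox2 mGS, 1669 in Oct4 mGS and 2342 to 3163 in the rest. Differences were tested with limma on log2 line values in one fit of the 23 lines, with Benjamini-Hochberg adjustment over all 19938 genes and a threshold of 0.05. Because the labels do not say whether lines of a group came from separate animals, the p-values measure the spread between these lines.

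Tight junctions seal the space between neighbouring epithelial cells and separate the apical from the basolateral membrane. Claudins form the sealing or pore-forming strands, occludin and tricellulin join them at bicellular and tricellular contacts, and the zonula occludens scaffolds tie the strands to actin. The Par and Crumbs complexes set apical polarity and position the junction. In the testis these proteins are known for the Sertoli cell barrier, while in the early embryo they are known for the sealing of the trophectoderm.

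Of the 44 genes, 31 exceeded background in at least 1 group mean, 16 in all 8 and 13 in none. The 31 held 12 of the 23 claudins, 7 of the 9 polarity proteins and every MARVEL protein, adhesion molecule and scaffold. Over these 31, the SD between the cultures of a line had a median of 0.108 on the log2 scale, and the SD between lines of a group had a median of 0.283. The lines of a group thus differed more than the cultures of a line, and Cldn7 had the largest spread between lines (0.860).

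**Figure D1:**
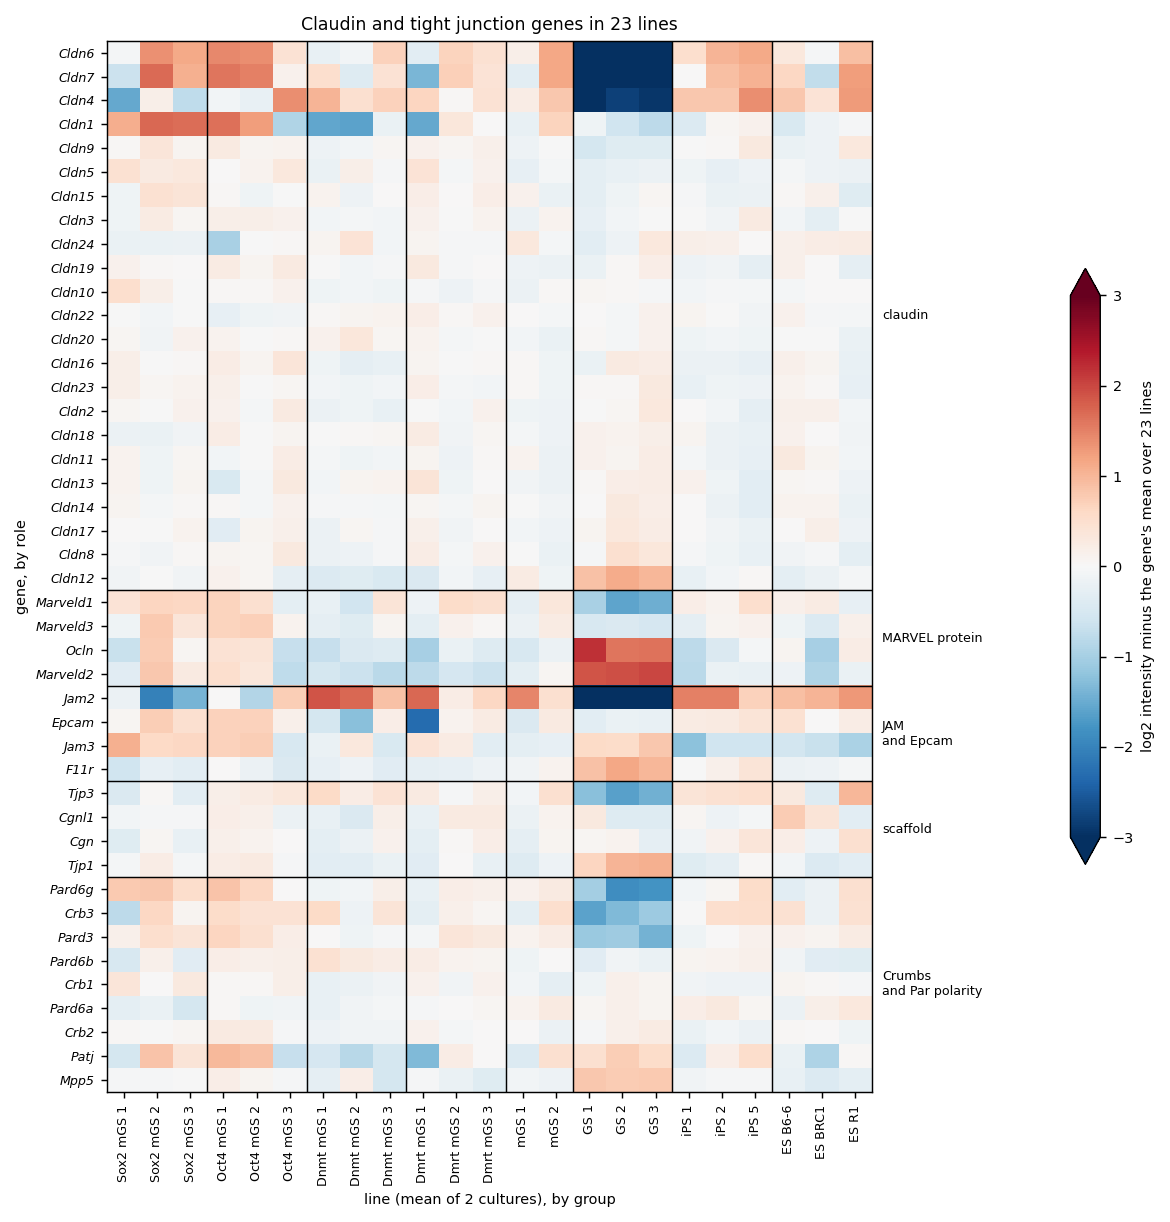
Colours give the log2 intensity of each of the 44 genes (down the page, by role) in each of the 23 lines (across, by group) minus that gene's mean over the 23 lines, with colours ending at 3 and -3. The GS columns are darkest blue for Cldn6, Cldn7, Cldn4 and Jam2 and red for Ocln, Marveld2, Cldn12, F11r, Tjp1 and Mpp5.

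GS cells and ES cells differed in which members of each family were high. In GS cells Jam2, Cldn6, Cldn4 and Cldn7 were below background and far below ES cells, while Marveld2, Ocln, Tjp1, F11r and Cldn12 were higher than in ES cells. By the limma test 8 of the 44 genes were higher in GS than in ES and 10 were lower (40.9%), and 43.2% of all genes were called in this comparison (26.0% higher, 17.2% lower). With both directions pooled, the share of members called was thus close to that of all genes. By direction, a smaller share of members was higher and a larger share lower than among all genes. The median log2 difference was 0.03 over the members and 0.09 over all genes. The 3 GS lines lay below all 20 other lines for 11 members (25%) and above all of them for 6 (13.6%), compared with 11.1% and 16.1% of all genes.

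Jam2, an adhesion molecule of the immunoglobulin family that binds Jam3, read 108, 50.1 and 52.6 in the GS lines, against 2731, 2079.5 and 2257 in ES R1, B6-6 and BRC1. Cldn6, a claudin known from embryonic epithelia, read 89.4, 84.2 and 90.8 in GS, against 2655, 1791 and 1388 in ES. Cldn4, an epithelial claudin, read 91.3, 109 and 100 in GS and 1837, 1324 and 1007 in ES. No GS line came near an ES line for these 3 genes, and all GS values were under the background level. The fitted log2 difference was -5.15 ± 0.51, adjusted p = 1.84e-07 for Jam2, -4.41 ± 0.39, adjusted p = 5.31e-08 for Cldn6 and -3.76 ± 0.40, adjusted p = 5.01e-07 for Cldn4 (limma, SE). Set against the background level rather than the dim GS value, Jam2 was at least 14.2-fold lower, Cldn6 at least 11.4-fold lower and Cldn4 at least 8.18-fold lower in GS. Cldn7, which binds Epcam in epithelia, read 33, 42.2 and 35.6 in GS and 792, 515 and 201 in ES, a log2 difference of -3.56 ± 0.65 with an adjusted p of 0.000191 by limma, or at least 2.64-fold lower. The ES lines differed among themselves for Cldn7, with BRC1 lowest. Epcam itself did not pass the test, at 1404, 1519 and 1492 in GS and 2040.5, 2367 and 1745 in ES (log2 difference -0.47 ± 0.48, adjusted p = 0.451). In these arrays of whole cultures, fewer cells with a transcript and less of it per cell cannot be told apart.

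The neighbours of these claudins in the genome did not share the size of the difference. Cldn3 lies next to Cldn4 on chromosome 5 with no coding gene between them in the RefSeq gene table, and it read 253, 283 and 298 in GS and 297, 281 and 246 in ES, a log2 difference of 0.02 ± 0.11 that did not pass the limma test (adjusted p = 0.918). Cldn9 lies next to Cldn6 on chromosome 17 and read 109.7, 122 and 123 in GS and 196, 136 and 141 in ES. Its log2 difference of -0.39 ± 0.12 passed the limma test (adjusted p = 0.016) but both group means were below background, and the call was lost without ES R1 or GS line 1. The promoter windows of Cldn6, Cldn4 and Cldn3 are shown because neighbouring or related claudins differed here. They run from 250 bases before to 50 after the gene's start in the RefSeq annotation of GRCm38.p6, with each CACCTG or its reverse complement CAGGTG in capitals, an E-box that zinc finger repressors of epithelial genes are known to bind. Cldn6 is chr17:23679115-23679414 on the plus strand, Cldn4 is chr5:134946885-134947184 on the minus strand and Cldn3 is chr5:134985964-134986263 on the plus strand.
Cldn6: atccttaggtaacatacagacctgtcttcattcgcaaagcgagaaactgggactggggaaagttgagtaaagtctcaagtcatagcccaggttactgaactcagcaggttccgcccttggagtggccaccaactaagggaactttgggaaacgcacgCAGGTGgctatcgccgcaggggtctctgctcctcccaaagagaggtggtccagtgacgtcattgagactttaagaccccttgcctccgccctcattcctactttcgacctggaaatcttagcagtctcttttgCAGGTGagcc
Cldn4: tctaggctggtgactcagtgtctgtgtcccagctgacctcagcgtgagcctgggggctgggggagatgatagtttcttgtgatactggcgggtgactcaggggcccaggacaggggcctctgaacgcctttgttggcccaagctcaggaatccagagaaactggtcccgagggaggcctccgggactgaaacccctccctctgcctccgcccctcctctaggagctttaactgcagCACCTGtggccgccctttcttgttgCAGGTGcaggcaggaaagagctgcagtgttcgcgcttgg
Cldn3: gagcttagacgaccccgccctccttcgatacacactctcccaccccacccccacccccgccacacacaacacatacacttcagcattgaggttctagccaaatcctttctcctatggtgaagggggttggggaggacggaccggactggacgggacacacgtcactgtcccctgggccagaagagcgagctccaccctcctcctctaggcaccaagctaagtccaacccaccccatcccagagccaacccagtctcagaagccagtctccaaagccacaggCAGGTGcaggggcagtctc

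Ocln and Marveld2 went the other way. Ocln (occludin) read 1201, 805 and 811 in the GS lines, against 305, 279.9 and 132 in ES R1, B6-6 and BRC1. Marveld2, which encodes tricellulin, read 933, 970.3 and 1008 in GS, against 222, 229 and 135 in ES. All GS values lay above all ES values, and the 2 genes lie next to each other on chromosome 13 with no coding gene between them. The limma log2 difference was 2.04 ± 0.37, adjusted p = 0.000205 for Ocln and 2.35 ± 0.30, adjusted p = 4.55e-06 for Marveld2, or 4.12-fold and 5.11-fold higher in GS. Their promoter windows are shown as those of an adjacent pair that moved together, in the same notation: Ocln at chr13:100552449-100552748 and Marveld2 at chr13:100616895-100617194, both on the minus strand, each being 1 of 2 RefSeq windows of its gene.
Ocln: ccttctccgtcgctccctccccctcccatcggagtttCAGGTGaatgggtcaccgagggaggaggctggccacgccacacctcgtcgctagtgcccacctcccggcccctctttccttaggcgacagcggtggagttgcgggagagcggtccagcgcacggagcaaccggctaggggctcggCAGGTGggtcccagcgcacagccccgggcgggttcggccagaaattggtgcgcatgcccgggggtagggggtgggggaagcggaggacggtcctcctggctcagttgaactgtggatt
Marveld2: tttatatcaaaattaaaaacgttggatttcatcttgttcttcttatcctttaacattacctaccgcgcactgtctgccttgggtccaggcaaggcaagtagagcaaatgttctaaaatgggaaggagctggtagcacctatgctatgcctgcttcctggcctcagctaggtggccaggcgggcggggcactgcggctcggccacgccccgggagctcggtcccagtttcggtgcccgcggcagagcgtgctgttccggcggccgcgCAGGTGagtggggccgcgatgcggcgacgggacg

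RefSeq gave 51 windows for 35 of the 44 genes, and none of the windows used here covered Cldn8, Cldn9, Cldn13, Cldn23, Jam2, Jam3, Marveld3, Mpp5 or Pard6g. CACCTG, searched on both strands, was present in at least 1 window of 15 of the 35 genes (42.9%), and in 22.6% of all 27025 genes with a window. It was in 6 of the 7 genes with a window that lay lower in all GS lines than in all other lines, and in 3 of the 5 that lay higher. The GC box GGGCGG was in 68.6% of the 35 genes and 38.2% of all, the TATA letters TATAAA in 8.57% and 15.7%, and the octamer ATGCAAAT in 2.86% and 1.97%, each searched on both strands and none contained in another. Members on both sides of the GS difference carried the E-box letters, and a match here describes letters and not binding.

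Among the other MARVEL proteins and adhesion molecules, Marveld1 was lower in GS and Jam3 and F11r were higher. Marveld1 read 278, 182 and 197 in GS and 455, 601 and 644 in ES, a log2 difference of -1.38 ± 0.27, adjusted p = 0.000442. F11r, the junctional adhesion molecule A gene, read 1849.6, 2276 and 2008 in GS and 968, 897 and 903 in ES (1.14 ± 0.12, adjusted p = 6.27e-07). Jam3 read 402, 395 and 472 in GS and 138, 183 and 169.6 in ES (1.38 ± 0.29, adjusted p = 0.000647), with the ES mean under background. The 3 junctional adhesion molecules therefore split, with Jam2 the only one lower in GS. Marveld3 did not pass the test, at 118, 122 and 118 in GS and 184, 151 and 124 in ES.

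The scaffolds split in the same manner. Tjp1, the main zonula occludens scaffold, read 2789.9, 3625 and 3720.0 in GS, against 1428, 1679.9 and 1343 in ES (1.18 ± 0.14, adjusted p = 1.58e-06 by limma). Its relative Tjp3 read 171, 130.4 and 149 in GS, against 805, 501 and 313 in ES (-1.75 ± 0.24, adjusted p = 7.92e-06). Neither gene's groups overlapped. Cgn (cingulin) and Cgnl1 (paracingulin) did not pass the test, with log2 differences of -0.21 ± 0.18 and -0.43 ± 0.23. Without GS line 1, Cgnl1 passed at -0.66 (adjusted p = 0.0342).

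Of the 9 polarity genes 3 were lower in GS and 1 was higher. Pard3, the Par complex scaffold, read 219, 226 and 175 in GS and 560.2, 511 and 501 in ES (-1.35 ± 0.13, adjusted p = 2.06e-07). Pard6g, a Par6 subunit, read 147, 81.3 and 85.9 in GS and 415, 237 and 260.5 in ES (-1.55 ± 0.25, adjusted p = 6.49e-05). Crb3, the Crumbs protein of epithelia, read 92.3, 112 and 132 in GS and 384, 386 and 248 in ES (-1.58 ± 0.30, adjusted p = 0.000257). The GS lines lay below the ES lines in each case. Mpp5, the Pals1 adaptor that binds Crumbs proteins, read 1339.5, 1285 and 1306 in GS and 624, 656 and 573 in ES (1.09 ± 0.13, adjusted p = 1.66e-06). Patj, its partner, read 342, 409 and 359.5 in GS and 252, 213 and 128 in ES and did not pass (0.96 ± 0.46, adjusted p = 0.105), although it passed with the feeder score as a covariate (1.26, adjusted p = 0.0306). Within the Par6 subunits, Pard6b (536, 636 and 596 in GS, 534, 635 and 541 in ES) and Pard6a (202, 216 and 205 in GS, 244, 173 and 218 in ES) did not pass. Cldn12, a claudin that lacks the usual binding motif for these scaffolds, was the only claudin above background that was higher in GS, at 983, 1159.9 and 1065 against 515, 438 and 471 in ES (1.17 ± 0.12, adjusted p = 2.74e-07). The feeder score was 226 to 666 in GS and 359 to 1152 in ES, and all 18 calls were kept with it as a covariate. Strain also differs between GS and ES and cannot be told apart from cell type in this comparison.

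**Figure D2:**
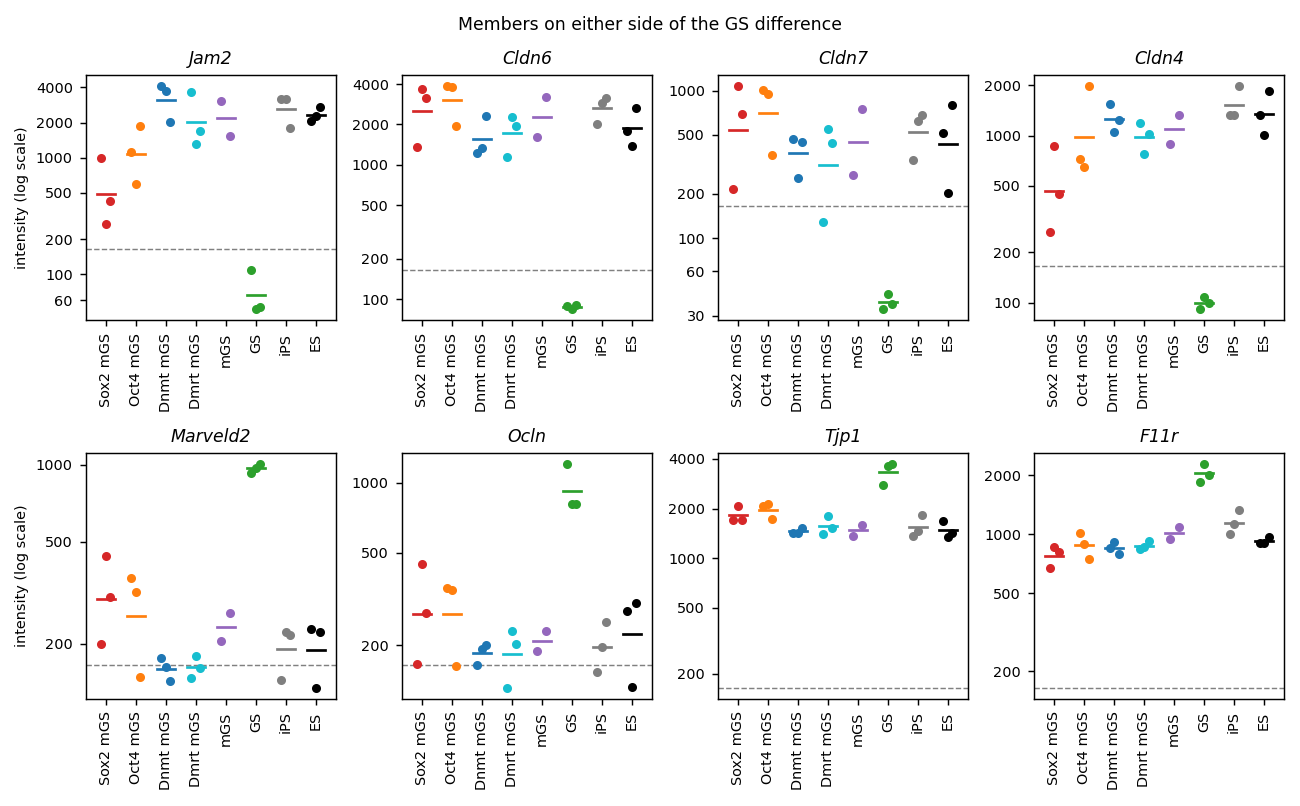
Intensity per line (points, log axis) and the geometric mean of each group (bars) for 8 genes, with groups across and the background level of 165 as a dashed line. In GS, Jam2, Cldn6, Cldn7 and Cldn4 lie under the line and below every other group, while Marveld2, Ocln, Tjp1 and F11r lie above every other group.

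Jam2 and 3 claudins rose, and occludin and tricellulin fell, in the pluripotent lines made from GS cells. Jam2, Cldn6, Cldn4, Cldn7, Tjp3, Crb3, Pard6g, Marveld1 and Pard3 were higher, and Marveld2, Ocln, Tjp1, Cldn12, F11r and Mpp5 lower, in each of the 5 mGS types than in GS. In Sox2 mGS 13 members were called higher and 9 lower than in GS (50% of 44), where 44.0% of all genes were called, 19.4% higher and 24.6% lower. In Oct4 mGS 13 were higher and 6 lower (43.2%), where 42.9% of all genes were called, 20.2% higher and 22.6% lower. In Dnmt mGS 11 were higher and 12 lower (52.3%), where 49.1% of all genes were called, 19.1% higher and 30.0% lower. In Dmrt mGS 12 were higher and 6 lower (40.9%), where 41.6% of all genes were called, 17.6% higher and 24.1% lower. In mGS 9 were higher and 8 lower (38.6%), where 43.1% of all genes were called, 16.2% higher and 26.9% lower. With both directions pooled, the shares called were near those of all genes in each type. By direction, the members' share called higher was above that of all genes in each type, and the share called lower was below it. This lean was not tested. These 5 comparisons use the same 3 GS lines, which also enter the comparison with ES, so a call shared by the 5 types is no independent support. Of the 44 members 9 were called higher in each type and 6 lower, where 10.4% of all genes were called higher in each and 14.9% lower. The largest adjusted p among the 75 limma tests of these 15 genes was 0.00175.

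Jam2 rose most in the knockdown and spontaneous lines, at 4136, 3692 and 2037 across the Dnmt mGS lines, 3648, 1304 and 1695 across the Dmrt mGS lines and 3073 and 1538 across the mGS lines. It read 989.5, 271 and 425 across the Sox2 mGS lines and 1126, 599 and 1851 across the Oct4 mGS lines, and GS lay between 50.1 and 108. All 14 mGS lines were above the GS lines and above background, and Sox2 mGS line 2 was the lowest of them. The log2 difference from GS was 2.88 ± 0.51 for Sox2 mGS, 4.03 ± 0.51 for Oct4 mGS, 5.58 ± 0.51 for Dnmt mGS, 4.93 ± 0.51 for Dmrt mGS and 5.05 ± 0.56 for mGS. Cldn6 read 1369, 3676 and 3164 across the Sox2 mGS lines and 3887, 3788 and 1938 across the Oct4 mGS lines. It read 1223, 1347 and 2295 across the Dnmt mGS lines, 1151, 2287 and 1954 across the Dmrt mGS lines and 1607 and 3204 across the mGS lines, against 84.2 to 90.8 in GS. The Cldn6 levels of the types overlapped, and the log2 difference from GS was 4.84 ± 0.39 for Sox2 mGS, 5.12 ± 0.39 for Oct4 mGS, 4.14 ± 0.39 for Dnmt mGS, 4.29 ± 0.39 for Dmrt mGS and 4.69 ± 0.44 for mGS.

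Cldn4 read 263, 862 and 448 across the Sox2 mGS lines and 723, 652 and 1985 across the Oct4 mGS lines. In the other types it read 1540.2, 1056 and 1231 across the Dnmt mGS lines, 1195, 775 and 1019 across the Dmrt mGS lines and 891 and 1327 across the mGS lines, against 91.3 to 109 in GS. Sox2 mGS held the lowest line and Oct4 mGS line 3 the highest. Its log2 difference from GS was 2.23 ± 0.40 for Sox2 mGS, 3.29 ± 0.40 for Oct4 mGS, 3.66 ± 0.40 for Dnmt mGS, 3.30 ± 0.40 for Dmrt mGS and 3.45 ± 0.45 for mGS. Cldn7 read 214, 1078 and 695 across the Sox2 mGS lines and 1013, 947 and 366 across the Oct4 mGS lines. It read 471, 257 and 451 across the Dnmt mGS lines, 129, 549.6 and 443 across the Dmrt mGS lines and 267 and 749 across the mGS lines, against 33 to 42.2 in GS. Dmrt mGS line 1 was the only mGS line in which Cldn7 stayed under background, and it still lay above the GS lines. The log2 difference was 3.89 ± 0.65 for Sox2 mGS, 4.26 ± 0.65 for Oct4 mGS, 3.37 ± 0.65 for Dnmt mGS, 3.10 ± 0.65 for Dmrt mGS and 3.60 ± 0.72 for mGS.

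Tjp3 read 301, 419.7 and 327 across the Sox2 mGS lines and 461, 485 and 513 across the Oct4 mGS lines, and 603, 477 and 545 across the Dnmt mGS lines, 489.6, 396 and 456 across the Dmrt mGS lines and 383 and 567 across the mGS lines, against 130.4 to 171 in GS. Pard6g read 512, 519.5 and 429.8 across the Sox2 mGS lines and 535, 457 and 299 across the Oct4 mGS lines, and 272, 279.7 and 337 across the Dnmt mGS lines, 254, 342 and 329.6 across the Dmrt mGS lines and 325 and 358 across the mGS lines, against 81.3 to 147 in GS. Marveld1 read 725, 846 and 832 across the Sox2 mGS lines and 871, 759 and 445 across the Oct4 mGS lines, and 466, 367 and 708 across the Dnmt mGS lines, 490.0, 799 and 765 across the Dmrt mGS lines and 455 and 691 across the mGS lines, against 182 to 278 in GS. None of these 3 genes had an mGS line within the GS range. Crb3 read 164, 431 and 298 across the Sox2 mGS lines and 415, 381 and 381 across the Oct4 mGS lines, and 423, 255 and 369.8 across the Dnmt mGS lines, 231, 312 and 294 across the Dmrt mGS lines and 231 and 399 across the mGS lines, against 92.3 to 132 in GS. Pard3 read 524, 670.0 and 619 across the Sox2 mGS lines and 736, 659.9 and 539.8 across the Oct4 mGS lines, and 473, 432 and 459.9 across the Dnmt mGS lines, 450.2, 604 and 574 across the Dmrt mGS lines and 505 and 550.0 across the mGS lines, against 175 to 226 in GS. Across the 5 types the log2 differences from GS were 1.21 to 1.85 for Tjp3, 1.55 to 2.27 for Pard6g, 1.20 to 1.89 for Marveld1, 1.32 to 1.82 for Crb3 and 1.15 to 1.64 for Pard3. The Crb3 call in mGS was lost without mGS line 2. With the feeder score as a covariate the Marveld1 differences were 1.02 to 1.36, and all 5 calls were kept. Sox2 mGS then fell from 1.89 to 1.04 and Oct4 mGS from 1.63 to 1.02. Marveld1 was then also called higher in iPS than in ES (0.60), and lower in Dnmt mGS, Sox2 mGS and Oct4 mGS than in iPS (-0.58, -0.56 and -0.58).

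Among the genes that fell, Ocln read 166, 449 and 276 across the Sox2 mGS lines and 353, 345 and 163 across the Oct4 mGS lines. It read 164, 194 and 200.4 across the Dnmt mGS lines, 132, 230.4 and 202 across the Dmrt mGS lines and 188 and 231 across the mGS lines, against 805 to 1201 in GS. Marveld2 read 201, 441 and 306 across the Sox2 mGS lines and 360.2, 319.8 and 149 across the Oct4 mGS lines, and 176, 162 and 144 across the Dnmt mGS lines, 147, 179 and 161 across the Dmrt mGS lines and 206 and 264 across the mGS lines, against 933 to 1008 in GS. The GS lines stood above all mGS lines for both, and Sox2 mGS line 2 was the closest mGS line. The Ocln log2 difference was -1.75 ± 0.37 for Sox2 mGS, -1.77 ± 0.37 for Oct4 mGS, -2.32 ± 0.37 for Dnmt mGS, -2.33 ± 0.37 for Dmrt mGS and -2.14 ± 0.42 for mGS, and that of Marveld2 was -1.69 ± 0.30 for Sox2 mGS, -1.91 ± 0.30 for Oct4 mGS, -2.60 ± 0.30 for Dnmt mGS, -2.58 ± 0.30 for Dmrt mGS and -2.06 ± 0.34 for mGS.

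Tjp1 read 1699.7, 2071 and 1709.9 across the Sox2 mGS lines and 2073, 2124 and 1732 across the Oct4 mGS lines, and 1421, 1431 and 1533 across the Dnmt mGS lines, 1406, 1791 and 1531 across the Dmrt mGS lines and 1362 and 1593 across the mGS lines, against 2789.9 to 3720.0 in GS. F11r read 669, 855 and 811 across the Sox2 mGS lines and 1018, 892 and 748 across the Oct4 mGS lines, and 851, 912 and 794 across the Dnmt mGS lines, 841, 855 and 917 across the Dmrt mGS lines and 942 and 1081 across the mGS lines, against 1849.6 to 2276 in GS. Cldn12 read 492, 532 and 499 across the Sox2 mGS lines and 583, 554 and 440.2 across the Oct4 mGS lines, and 402, 411 and 387 across the Dnmt mGS lines, 393, 500.3 and 448 across the Dmrt mGS lines and 627 and 491 across the mGS lines, against 983 to 1159.9 in GS. These 3 genes were lower but well above background in all mGS lines. Mpp5 read 738, 741 and 754 across the Sox2 mGS lines and 869.7, 801 and 737 across the Oct4 mGS lines, and 625, 865 and 529 across the Dnmt mGS lines, 746, 656 and 588 across the Dmrt mGS lines and 722 and 689 across the mGS lines, against 1285 to 1339.5 in GS. The log2 differences over the 5 types were -1.20 to -0.77 for Tjp1, -1.40 to -1.01 for F11r, -1.42 to -0.94 for Cldn12 and -0.99 to -0.71 for Mpp5.

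**Figure D3:**
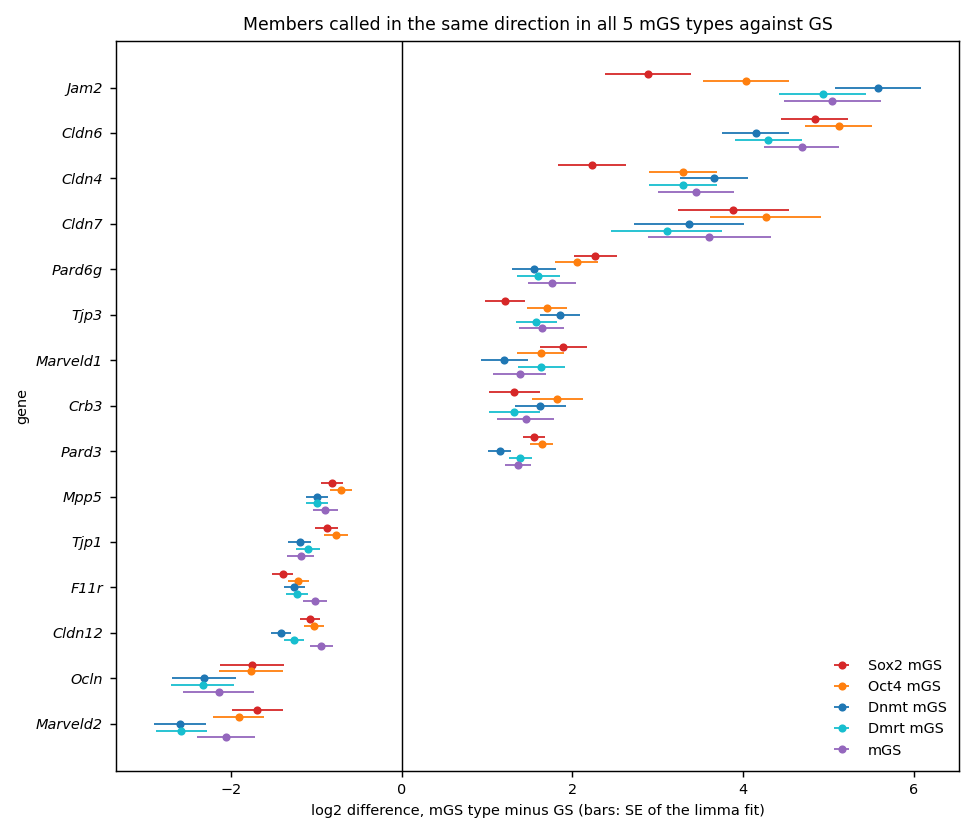
The log2 difference from GS (across, with the SE of the limma fit as bars) of the 15 genes called in each of the 5 mGS types (down the page), coloured by type. Jam2 ranges from 2.88 in Sox2 mGS to 5.58 in Dnmt mGS, and Marveld2 from -2.60 in Dnmt mGS to -1.69 in Sox2 mGS.

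Other members were called in some types and not in others, and a direct test between routes is given further on. Cldn1, the barrier claudin of the epidermis, rose in Sox2 mGS, at 219.8, 343 and 328 against 94.1, 67.9 and 59.5 in GS (2.01 ± 0.56, adjusted p = 0.00694 by limma). With the feeder score as a covariate this call was lost, at 0.57 (adjusted p = 0.418). Cldn1 in Oct4 mGS read 326, 245 and 55 and did not pass (1.18 ± 0.56, adjusted p = 0.1). The difference was 1.97 without Oct4 mGS line 3. A refit without the line that goes against a difference is no support for that difference. Cldn1 read 34.9, 33.6 and 89.9 across the Dnmt mGS lines, 35.5, 132 and 104 across the Dmrt mGS lines and 88.9 and 165 across the mGS lines, under or at background. Marveld3, a MARVEL protein of epithelial junctions, rose to 151, 285 and 215 in the Sox2 lines and 265, 275 and 179.5 in the Oct4 lines, against 118, 122 and 118 in GS. The Marveld3 difference was 0.81 ± 0.22, adjusted p = 0.00521 in Sox2 mGS and 0.98 ± 0.22, adjusted p = 0.00129 in Oct4 mGS, and the Sox2 mGS call was lost with the feeder score as a covariate (0.55, adjusted p = 0.127).

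Pard6b rose in Dnmt mGS (941, 836 and 794), Dmrt mGS (803, 732 and 723) and Oct4 mGS (790.2, 757 and 769), against 536, 636 and 596 in GS, by 0.54, 0.35 and 0.39 on the log2 scale. The Dmrt mGS call was lost without GS line 1, GS line 3 or Dmrt mGS line 1, and the Oct4 mGS call without GS line 1 or with each array centred on its median. It did not pass in Sox2 mGS (488, 756 and 544) or mGS (624 and 690.3). Cldn5, best known from endothelium, rose in Sox2 mGS (431, 384 and 396), Dmrt mGS (418, 303 and 346) and Oct4 mGS (316, 342 and 393), against 260.1, 269 and 281 in GS, by 0.58, 0.39 and 0.37 on the log2 scale. The Cldn5 call in Dmrt mGS was lost without Dmrt mGS line 1 or with only the groups compared in the fit, and that in Oct4 mGS without Oct4 mGS line 3 or with centring. Cldn5 read 276, 356 and 308 in Dnmt mGS and 268 and 303 in mGS and did not pass there. Cldn9 rose in 4 types, at 162, 202 and 167 across the Sox2 mGS lines and 190.4, 166 and 169.7 across the Oct4 mGS lines, 141, 147 and 164 in Dnmt mGS and 170.5, 164 and 175 in Dmrt mGS, and did not pass in mGS (141 and 155). Cldn9 was under background in every GS, mGS and Dnmt mGS line, and the Dnmt mGS call was lost without GS line 1 or Dnmt mGS line 3.

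Jam3 fell in Dnmt mGS (232, 332 and 196) and mGS (221 and 224), against 402, 395 and 472 in GS (-0.77 ± 0.29, adjusted p = 0.0325 in Dnmt mGS and -0.92 ± 0.32, adjusted p = 0.0261 in mGS). The mGS call was lost without either mGS line or without GS line 3, and the Dnmt mGS call was lost without GS line 2 or 3 or Dnmt mGS line 1 or 3. Jam3 read 354, 317 and 215 in Dmrt mGS and did not pass. Patj was called lower in Dnmt mGS (172, 138 and 168) than in GS (342, 409 and 359.5) at -1.22 ± 0.46, adjusted p = 0.0373, and the call was lost when any 1 of the 6 lines was left out. Pard6a fell in Sox2 mGS, at 159.8, 169 and 136 against 202, 216 and 205 in GS (-0.43 ± 0.11, adjusted p = 0.00395). In the other types it read 199, 177 and 181 in Oct4 mGS and 167, 181 and 188 across the Dnmt mGS lines, 189, 197 and 203 across the Dmrt mGS lines and 209 and 234 across the mGS lines. Epcam, which marks epithelial and pluripotent cells, passed in none of the 5 types, at 1824, 2918 and 2418 across the Sox2 mGS lines and 2803, 2783 and 1924 across the Oct4 mGS lines and 1209.8, 728 and 1991 across the Dnmt mGS lines, 353, 1882 and 2059.7 across the Dmrt mGS lines and 1295 and 2093 across the mGS lines, against 1404 to 1519 in GS. Epcam stood apart in the lines labelled Dmrt mGS 1 and Dnmt mGS 2, which held its lowest values. Without the line labelled Dnmt mGS 2, whose Dnmt1 was not lowered, 20 of the 23 Dnmt mGS calls were kept and Patj, Cldn16 and Crb2 were lost. Without GS line 1, 23 members were called in mGS against GS in place of 17, the added 6 being Cldn14 and the dim Cldn2, Cldn16, Cldn17, Crb1 and Crb2. The share of all genes called in that refit is not given here, so the gain is not particular to the members.

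Few members differed between iPS cells and the ES, mGS, Dnmt mGS or Dmrt mGS lines by a size that 2 or 3 lines a group could call. No member passed between iPS and ES, where 0.627% of all genes passed, and 3 members (Pard6b, F11r and Cldn11) had an unadjusted p under 0.05. No member and no other gene passed between mGS and iPS by limma (0% of all genes, with 225 genes and 0 members at an unadjusted p under 0.05). No member passed between Dmrt mGS and iPS (0.848% of all genes, with 4 members at an unadjusted p under 0.05). One member, F11r, was lower in Dnmt mGS (851, 912 and 794) than in iPS (999.7, 1132 and 1319), at -0.43 ± 0.12, adjusted p = 0.047 by limma, where 6.87% of all genes passed (4.18% higher, 2.68% lower). That call was lost when Dnmt mGS line 1, 2 or 3 or iPS line 2 or 5 was left out.

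The levels of the genes named for ES and GS were also read in the iPS lines. Jam2 read 3163, 3152 and 1799 in iPS lines 1, 2 and 5, against 2079.5 to 2731 in ES (0.16 ± 0.51 on the log2 scale). Cldn6 read 2023, 2901 and 3127 in iPS, Cldn4 1325, 1327 and 1987 and Cldn7 338, 624 and 688, with log2 differences from ES of 0.49 ± 0.39, 0.17 ± 0.40 and 0.27 ± 0.65. The lines of each group overlapped, and the SE of Cldn7 was the widest of the 4. In iPS, Ocln read 153, 196 and 253, Marveld2 145, 222 and 216 and Tjp1 1372, 1464 and 1816, and each set overlapped ES. Epcam read 2071, 2079 and 2268 in iPS, Cldn1 77.9, 107 and 112, Jam3 113, 176 and 176 and Patj 183, 282 and 352. iPS line 1 was the lowest of the 3 for 25 of the 44 genes, among them all of these except Jam2. For the remaining named genes iPS read 529, 559 and 577 for Tjp3, 280.4, 307 and 437 for Pard6g, 620.1, 582 and 766 for Marveld1, 279, 400.1 and 405 for Crb3 and 429, 471 and 514 for Pard3. It read 456, 499.7 and 543 for Cldn12, 705, 742 and 739 for Mpp5, 138, 177 and 182 for Marveld3 and 727, 731 and 758 for Pard6b. It read 290.5, 267 and 285 for Cldn5, 156, 162 and 191 for Cldn9, 223, 239 and 203 for Pard6a and 202, 209.8 and 186 for Cldn19. The iPS and ES lines overlapped for all the genes named so far in iPS except Pard6b, Mpp5 and F11r, for which every iPS line was above every ES line. Pard6b read 534, 635 and 541 in ES (log2 difference 0.38 ± 0.12, adjusted p = 0.198), and Mpp5 differed by 0.24 ± 0.13, adjusted p = 0.437.

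The lines made with Sox2 or Oct4 differed from iPS cells for several members. In Sox2 mGS against iPS, Cldn1, Jam3, Cldn5, Crb1 and Cldn10 were higher and Jam2, Cldn4, Tjp3, F11r and Pard6a lower (10 of 44, or 22.7%, against 23.6% of all genes, 14.4% higher and 9.22% lower). Jam2 read 989.5, 271 and 425 in Sox2 mGS, against 3163, 3152 and 1799 in iPS. Cldn4 read 263, 862 and 448 in Sox2 mGS, against 1325, 1327 and 1987 in iPS. Neither gene's groups overlapped, and the limma log2 difference was -2.43 ± 0.51, adjusted p = 0.0032 for Jam2 and -1.70 ± 0.40, adjusted p = 0.00665 for Cldn4. Jam3 was higher, at 560.4, 406 and 411 in Sox2 mGS and 113, 176 and 176 in iPS (1.58 ± 0.29, adjusted p = 0.00135). Jam2 and Jam3, which bind each other, thus differed from iPS in opposite directions. Against GS, Jam2 was higher in Sox2 mGS and Jam3 was not called. Cldn1 read 219.8, 343 and 328 in Sox2 mGS and 77.9, 107 and 112 in iPS (1.58 ± 0.56, adjusted p = 0.0491), a call lost when any 1 of the 6 lines was left out. F11r read 669, 855 and 811 in Sox2 mGS and 999.7, 1132 and 1319 in iPS (-0.56 ± 0.12, adjusted p = 0.00461), and Tjp3 read 301, 419.7 and 327 in Sox2 mGS and 529, 559 and 577 in iPS (-0.68 ± 0.24, adjusted p = 0.0441), a call lost without any 1 of these lines but Sox2 mGS line 2. Pard6a read 159.8, 169 and 136 in Sox2 mGS and 223, 239 and 203 in iPS (-0.52 ± 0.11, adjusted p = 0.00379), and Cldn5 read 431, 384 and 396 in Sox2 mGS and 290.5, 267 and 285 in iPS (0.52 ± 0.11, adjusted p = 0.00405). Crb1 and Cldn10 were below background in both groups. The feeder score was 1454 to 2087 in Sox2 mGS and 282 to 400.3 in iPS. With it as a covariate, Jam3, F11r, Pard6a, Cldn5 and Crb1 kept the call and the other 5 lost it, including Jam2 (-1.68, adjusted p = 0.0681), Cldn4 (-1.29, adjusted p = 0.0889) and Cldn1 (0.13, adjusted p = 0.864).

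In Oct4 mGS against iPS 5 members were higher and none lower (11.4%, against 13.8% of all genes, 10.4% higher and 3.43% lower). Jam3 read 433, 449 and 191 in Oct4 mGS, against 113, 176 and 176 in iPS (1.13 ± 0.29, adjusted p = 0.0186 by limma). Pard3 read 736, 659.9 and 539.8 in Oct4 mGS, against 429, 471 and 514 in iPS (0.44 ± 0.13, adjusted p = 0.0367). Cldn19 read 268, 240.0 and 273 in Oct4 mGS, against 202, 209.8 and 186 in iPS (0.38 ± 0.11, adjusted p = 0.0323). The Pard3 and Cldn19 calls were each lost without 5 of the 6 lines in turn and with centring or quantile normalization, and the Jam3 call without iPS line 1 or Oct4 mGS line 1 or 2. Cldn16 and Crb2 were also called and were below background. Oct4 mGS line 3 was unlike lines 1 and 2, with a Jam3 value near the iPS lines, more Jam2 and Cldn4 and less Cldn1. Without that line 9 members were called, of which Jam3, Pard3 and Crb2 were also called with it. The 6 added were Cldn1, Cldn4, Jam2, Marveld2, Marveld3 and Tjp1, none of which passed with all lines. The log2 difference was 1.54 in place of 0.75 for Cldn1, -1.14 in place of -0.63 for Cldn4 and -1.67 in place of -1.28 for Jam2. Line 3 was singled out by its values of these 3 genes, so their added calls are no support for a difference. Without any 1 of the other 5 lines, 1 or 2 members were called. Shares of all genes called in these refits are not given here, so the counts do not set the members apart. The feeder score was 1615 and 1257 in Oct4 mGS lines 1 and 2, and 660.4 in line 3.

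Lines made by adding a factor were then compared directly with lines made by knocking a gene down, as 6 Sox2 mGS and Oct4 mGS lines against 6 Dnmt mGS and Dmrt mGS lines. Here 12 members were higher and 3 lower (34.1%, against 29.7% of all genes, 17.3% higher and 12.4% lower). Jam2, Pard6b and Cldn22 were the lower ones. Jam2 read from 271 to 1851 in the 6 factor lines, with a median of 794, and from 1304 to 4136 in the 6 knockdown lines, with a median of 2842. The log2 difference was -1.80 ± 0.36, adjusted p = 0.002 by limma. Only Oct4 mGS line 3 lay within the range of the knockdown lines. Cldn1 read from 55 to 343 in the factor lines (median 286) and from 33.6 to 132 in the knockdown lines (median 62.7), a log2 difference of 1.84 ± 0.40, adjusted p = 0.00318. Again Oct4 mGS line 3 alone lay within the other range. Epcam read from 1824 to 2918 in the factor lines (median 2600.4) and from 353 to 2059.7 in the knockdown lines (median 1546), a log2 difference of 1.06 ± 0.34, adjusted p = 0.0263. Without Dmrt mGS line 1 the Epcam difference was 0.64, and without the line labelled Dnmt mGS 2 it no longer passed (0.87, adjusted p = 0.0718).

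The further members higher in the factor lines differed by less. Marveld2 differed by 0.79 ± 0.21, adjusted p = 0.0117, Cldn6 by 0.76 ± 0.28, adjusted p = 0.0473, Pard6g by 0.58 ± 0.18, adjusted p = 0.0219 and Marveld3 by 0.53 ± 0.15, adjusted p = 0.0171 on the log2 scale. Pard3 (0.33), Tjp1 (0.32) and Cldn12 (0.29) differed by less, and the dim Cldn10, Cldn16 and Crb1 by 0.24, 0.23 and 0.22. Pard6b differed by -0.25 and the dim Cldn22 by -0.19. Cldn4 was lower without passing (-0.72 ± 0.28, adjusted p = 0.0631). The difference was -0.97 without Oct4 mGS line 3, its highest line, and a refit chosen in this way is no support for it. The calls of Jam2, Cldn1, Marveld2, Marveld3, Cldn10 and Cldn22 were kept when any 1 of the 12 lines was left out, whereas the Cldn6, Pard6b, Cldn16, Crb1 and Epcam calls were lost without 8, 7, 10, 6 and 5 of them in turn, and those of Pard6g and Tjp1 without 4 each. Leaving out Oct4 mGS line 3 raised the count of members called to 21, and leaving out Oct4 mGS line 1 lowered it to 7. Shares of all genes called in these refits are not given here, so the counts show nothing particular to the members. The feeder score was 660.4 to 2087 in the factor lines and 199 to 1365 in the knockdown lines. The mean of the 11 pluripotency genes was 839 to 3085 in the factor lines, the highest being Oct4 mGS line 3, and 1902 to 3716 in the knockdown lines, and its part in these differences was not tested. With the score as a covariate Jam2 was the only one of the 15 to keep the call (-1.36, adjusted p = 0.0339), Mpp5 was added (0.36, adjusted p = 0.0232), and Cldn1 (1.00, adjusted p = 0.0509), Marveld2 (0.73, adjusted p = 0.0733) and Epcam (0.36, adjusted p = 0.409) lost it. The fitted difference was nearly as large with the covariate for Marveld2, Cldn12 (0.29) and Cldn10 (0.23), and smaller for Cldn1, Epcam and Cldn6 (0.39). Within each kind of route no member passed: 0 between Sox2 mGS and Oct4 mGS (0.115% of all genes, 0.0502% higher and 0.0652% lower, with 5 members at an unadjusted p under 0.05) and 0 between Dnmt mGS and Dmrt mGS (0.00502% of all genes, with 2 members at an unadjusted p under 0.05). The Sox2 mGS minus Oct4 mGS difference was -1.15 ± 0.51 for Jam2 and -1.07 ± 0.40 for Cldn4 on the log2 scale.

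**Figure D4:**
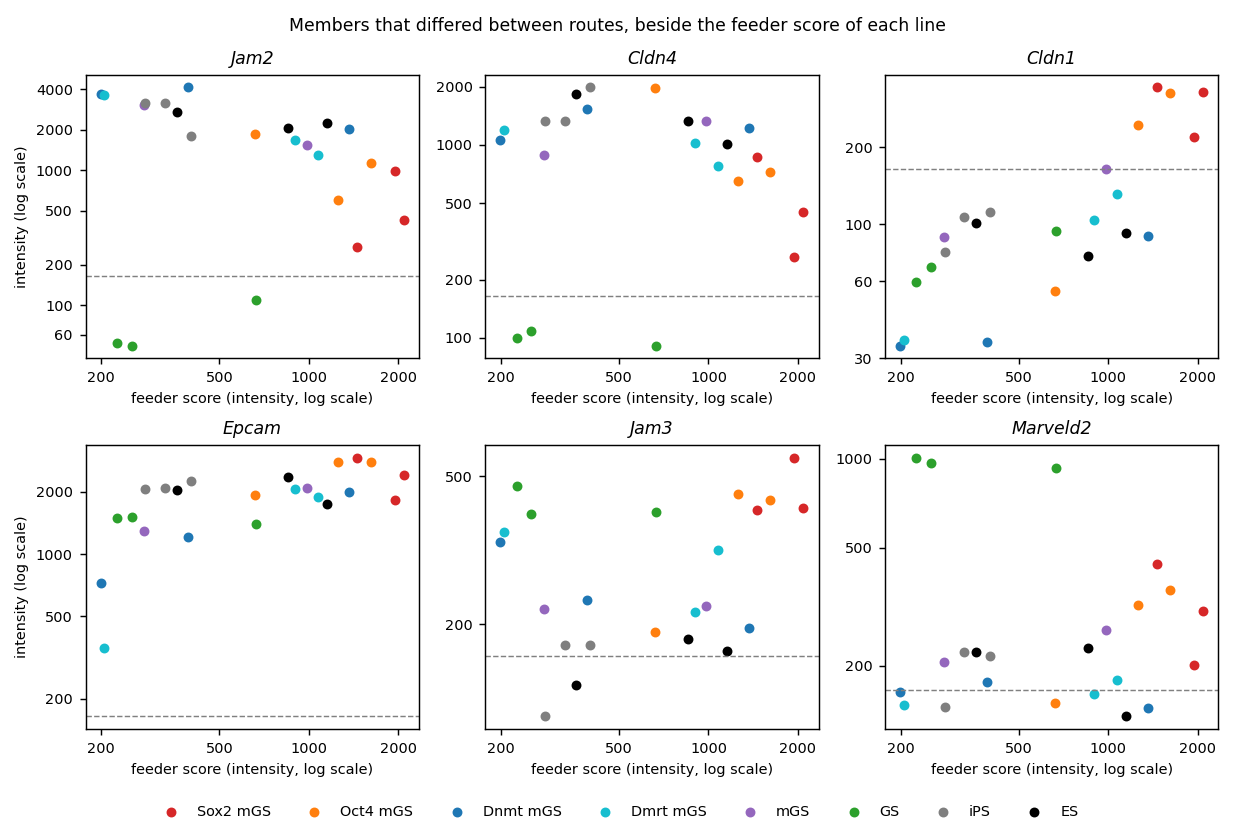
Intensity of 6 genes (up the page, log axis) against the feeder score (across, log axis) in each of the 23 lines, coloured by group, with the background level of 165 as a dashed line. The Sox2 mGS lines and Oct4 mGS lines 1 and 2, with feeder scores of 1257 to 2087, hold the highest Cldn1 and the lowest Jam2 outside GS, and Oct4 mGS line 3 lies with the other groups. Dnmt mGS line 3 has a feeder score of 1365, in the same range, with Cldn1 at 89.9 and Jam2 at 2037.

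Some members also varied together between lines of a group. In each of the 7 pluripotent groups 1 line held the lowest Cldn7, namely Sox2 mGS line 1, Oct4 mGS line 3, the line labelled Dnmt mGS 2, Dmrt mGS line 1, mGS line 1, iPS line 1 and ES BRC1. Epcam, Patj, Pard3 and Marveld3 were lowest in exactly these 7 lines, and Cldn6, Cldn1, Marveld2, Ocln, Crb3, Tjp1 and Cgn in 6 of the 7 groups. Lowest in all 7 were 4 of the other 30 members above background (13.3%), against 1.48% of 14153 other genes with a group mean above background. The share of those genes lowest in 6 of the 7 groups was not counted. No member was highest in all 7 of these lines (0.883% of the 14153 genes were). Other members went the other way in part, with Jam2 and Cldn5 highest in 5 of the 7 lines and Cldn14, Cldn15 and Cldn19 in 4. Some of these ranks were narrow, as for Epcam in iPS (2071 against 2079 and 2268) and Pard3 in ES (501 against 511 and 560). The lines were picked from the values themselves, so these counts are a description with no test.

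The Cldn7 contrast was widest in Sox2 mGS, where line 1 read 214 against 1078 and 695 in lines 2 and 3. The widest Epcam contrast was in Dmrt mGS, where line 1 read 353 against 1882 and 2059.7. The cultures of Dmrt mGS line 1 were alike, at 336 and 371. Outside the 44 genes, 8 of 25 epithelial regulators and keratin genes above background were also lowest in all 7 lines, chosen for mention after their values were seen, among them Esrp1, a splicing regulator of epithelial cells, Rab25, a vesicle traffic protein of epithelia, and the keratins Krt8, Krt18 and Krt19. Esrp1 read 183 in Dmrt mGS line 1 and 231 in the line labelled Dnmt mGS 2, against 1297 and 1236 in the other Dmrt mGS lines and 634 and 1045 in the other Dnmt mGS lines. Zeb1, a zinc finger repressor known to bind E-boxes of epithelial genes, was highest in all 7 of the lines. It was the only 1 of 16 mesenchymal transition genes above background to be so. Ildr1, an angulin of tricellular junctions, was also highest in all 7, as the only 1 of 35 tight junction and polarity partners. Zeb1 read 1004 in Oct4 mGS line 3, against 776 and 604 in lines 1 and 2, and 704 in ES BRC1, against 383 and 603 in ES R1 and B6-6. The Zeb1 contrast was small in Dmrt mGS (966 in line 1, 917 and 847 in the others). It was also small in Dnmt mGS (969 in the line labelled Dnmt mGS 2, 848 and 934 in the others). The GS lines read 1085, 903 and 1065 for Zeb1 and 742, 1283 and 1667 for Esrp1. A link between Zeb1 and these genes was not tested. None of the 17 fibroblast, 11 pluripotency or 13 spermatogonial genes above background was lowest or highest in all 7. The line in question also had the lowest feeder score of its group in 5 of 7 groups, and not in Sox2 mGS or ES. The part of feeder content in this pattern was not tested.

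**Figure D5:**
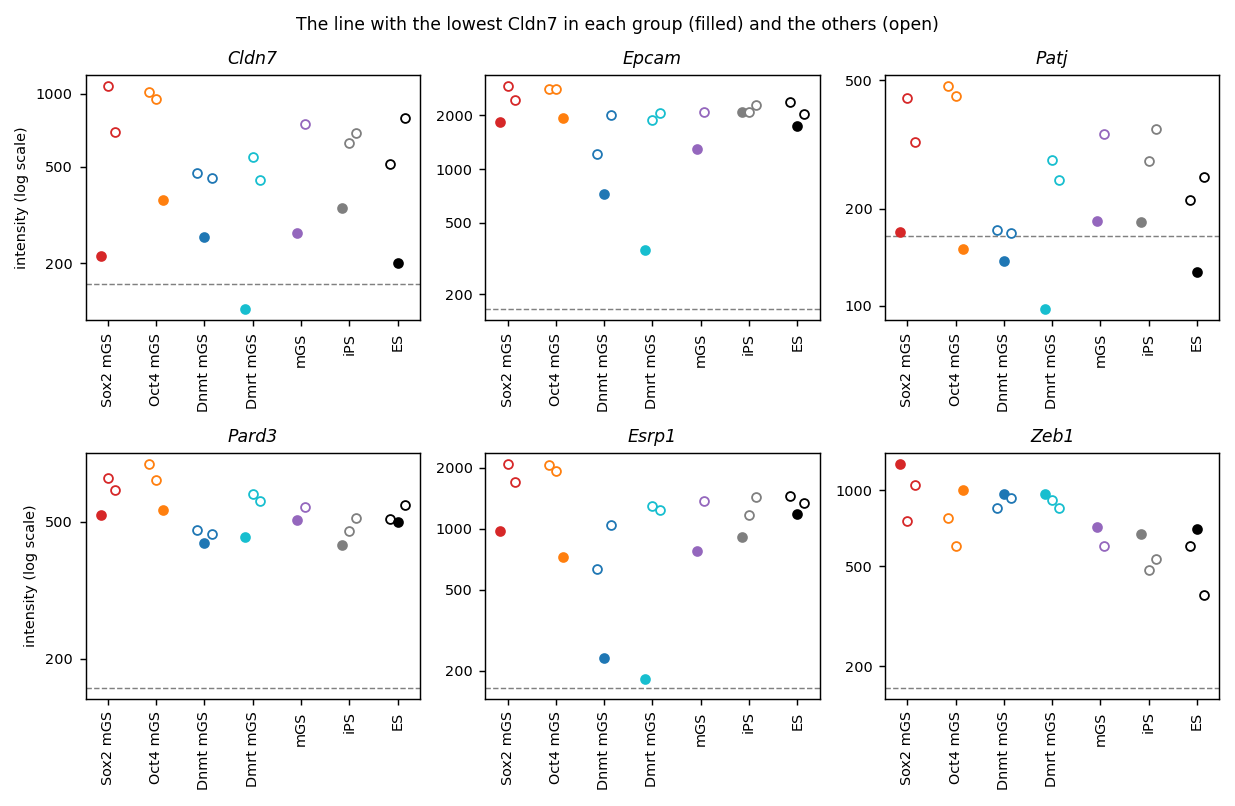
Intensity per line (log axis) of Cldn7, Epcam, Patj, Pard3, Esrp1 and Zeb1 in the 7 pluripotent groups, with the line of lowest Cldn7 in each group filled and the others open, and the background level of 165 as a dashed line where it falls in the panel. The filled point is the lowest of its group in the first 5 panels and the highest in the Zeb1 panel.

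Partner genes of the junction moved both ways, like the members. Of 35 measured tight junction and polarity partners, 15 were higher and 11 lower in GS than in ES by limma, where 26.0% of all genes were higher and 17.2% lower. Bves, a membrane protein of epithelial junctions, averaged 2395 in GS and 446 in ES (2.42 on the log2 scale, adjusted p = 3.14e-08). Ildr1 averaged 76.7 in GS and 584 in ES (-2.93 on the log2 scale, adjusted p = 0.000285), and Ybx3, a transcription factor that binds Tjp1, averaged 1056 in GS and 5179.9 in ES (-2.29 on the log2 scale, adjusted p = 1.7e-12). Bves was lower and Ildr1 higher in each of the 5 mGS types than in GS, by -2.47 to -2.28 and 2.05 to 3.66 on the log2 scale. Adherens junction and desmosome genes were mostly lower in GS (3 higher and 12 lower of 23). Cdh1, which encodes E-cadherin, averaged 260.4 in GS and 3860.1 in ES (-3.89 on the log2 scale, adjusted p = 8.59e-11), Dsg2, a desmosomal cadherin, averaged 41 in GS and 408 in ES (-3.32 on the log2 scale, adjusted p = 2.47e-07) and Nectin2, a nectin of the adherens junction, averaged 134 in GS and 682 in ES (-2.34 on the log2 scale, adjusted p = 3.87e-08). Of 27 epithelial regulators and surface proteases, 1 was higher and 12 lower in GS than in ES. Ildr1, Dsg2 and Nectin2 were under background in GS. Cdh1 was higher in every mGS type than in GS, by 3.57 to 3.99 on the log2 scale. The epithelial genes lower in GS were led by Klf5 (-3.26), Elf3 (-3.19) and the matriptase gene St14 (-3.01).

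In Sox2 mGS against iPS, where 14.4% of all genes were higher and 9.22% lower, 1 of the 27 epithelial regulators was higher and 11 lower, with Krt19 averaging 98.1 in Sox2 mGS and 520.1 in iPS (-2.41 on the log2 scale, adjusted p = 0.0124) and Elf3 averaging 183 in Sox2 mGS and 652 in iPS (-1.84 on the log2 scale, adjusted p = 0.00549). Of 16 genes of mesenchymal transition 8 were higher and none lower, with Snai2 averaging 1135 in Sox2 mGS and 213 in iPS (2.42 on the log2 scale, adjusted p = 0.0225) and Zeb2 averaging 686 in Sox2 mGS and 136 in iPS (2.34 on the log2 scale, adjusted p = 0.0293). Krt19 in Sox2 mGS and Zeb2 in iPS were under background. Snai2 and Zeb2 are zinc finger repressors of epithelial genes that fibroblasts also express. In the same comparison 13 of the 17 fibroblast genes were higher and none lower, with Dcn averaging 4477 in Sox2 mGS and 453 in iPS (3.30 on the log2 scale, adjusted p = 0.00299). The part of feeder cells in the mesenchymal counts was not tested. Among 35 tight junction partners 8 were higher and 2 lower. The largest of these differences was that of Llgl2, a basolateral polarity protein and 1 of the 2 lower. Llgl2 averaged 396 in Sox2 mGS and 1147 in iPS (-1.53 on the log2 scale, adjusted p = 0.000227).

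The members not yet described showed little change. Cldn3, Cldn15, Cldn20, Cgn and Cgnl1 exceeded background in all 8 group means and passed in no comparison, and Cldn14 exceeded it in 4 and passed in none. Cldn15 ran from 315 to 554 over the 23 lines, Cldn3 from 246 to 359, Cgn from 204 to 363 and Cgnl1 from 352 to 809.9. Cldn19 read 197, 229.7 and 259 in GS, 187, 249.6 and 227 in ES, 246, 231 and 226 in Sox2 mGS and 223, 214 and 218 across the Dnmt mGS lines, 275, 218 and 228 across the Dmrt mGS lines and 201 and 198 across the mGS lines, and passed only between Oct4 mGS and iPS. The 13 genes below background in every group mean held 11 claudins and Crb1 and Crb2, and 8 of the 13 were called in some comparison although no group mean exceeded background. Of the 44 genes, 33 passed in at least 1 of the 15 comparisons, and 25 had group means within 1 log2 unit of each other. The matching shares of all genes were not counted, so these counts cannot be called particular to the members. In Dnmt mGS against GS alone, 49.1% of all genes were called.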

How the data were processed

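RNA of 23 mouse lines, 2 cultures each, was read on 46 Affymetrix whole-transcript arrays. The deposited values are 1 intensity per probe set and culture on a linear scale with none below 16, and the submitters' processing notes name genome build mm9. How the authors summarised and scaled these intensities has no statement among the sources used here, and the precision is limited by the number of arrays.

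Of 28856 probe sets, 21789 carried 1 gene symbol in the platform annotation, 1621 several and 5446 none. Genes with several probe sets (999) were read from the brightest on average, leaving 19938 genes, and 44 of them were members (45 probe sets). Intensities were turned to log2, averaged over the cultures of a line, and fitted once with limma 3.58.1 (R 4.3.3) over 23 lines, with 8 group means, eBayes (2.71 prior and 15 residual degrees of freedom) and Benjamini-Hochberg adjustment at 0.05. The fit was tested on simulated data. Cultures of a line correlated at 0.980 to 0.998, and no pair of arrays shared more than 0.00347% of values. Background was the 95th percentile of 1015 olfactory receptor genes, whose median was 64.9. A fold against a group below background is a lower bound set at that level. Sequences came from RefSeq, GRCm38.p6, and all 44 symbols matched the RefSeq gene table, from which only names and neighbours were used.

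Values per line are printed for the 25 members above background in a group mean and called in at least 1 comparison; the others are given by range and count, and other lists by up to 3 called genes a comparison with the largest difference. Groups followed the labels. The members, the gene lists and the alternatives were chosen with earlier results of these data known. Alternatives changed the block, the samples in the fit, the scaling, the filter on dim genes, the variance trend, the probe set rule, the feeder covariate, the log offset and single lines left out.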

Additional observations from a re-analysis of the deposited data

Results flagged for a closer look

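The change against GS differed between the routes to pluripotency for 15 members, by a direct limma test of the difference (the 6 Sox2 mGS and Oct4 mGS lines against the 6 Dnmt mGS and Dmrt mGS lines, from which the GS mean drops out). On the log2 scale the difference was 1.84 for Cldn1, 1.06 for Epcam, 0.79 for Marveld2, 0.76 for Cldn6, 0.58 for Pard6g and 0.53 for Marveld3. It was 0.33 for Pard3, 0.32 for Tjp1, 0.29 for Cldn12, 0.24 for Cldn10, 0.23 for Cldn16 and 0.22 for Crb1. It was -1.80 for Jam2, -0.25 for Pard6b and -0.19 for Cldn22. The feeder score was 1257 to 2087 in 5 factor lines, 660.4 in Oct4 mGS line 3, and 199 to 1365 in the knockdown lines. With the score as a covariate 14 of the 15 lost the call, but their differences did not all shrink: the difference was then 0.29 for Cldn12, 0.23 for Cldn10, 0.28 for Cldn16, 0.26 for Crb1 and 0.73 for Marveld2, and 1.00 for Cldn1, 0.36 for Epcam and 0.39 for Cldn6. The part of feeder cells in these differences was not tested. Groups of 2 or 3 lines were too small for a check of single lines against the rest of their group.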

How the results depend on the processing

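Of 148 member differences called by limma, none changed direction under any alternative. The number that lost the call was 16 with line as a random block over 46 arrays, 21 with only the groups compared in the fit, 11 with quantile normalization, 19 with each array centred on its median, 1 with a variance trend, 25 with the feeder score as a covariate, 2 without culture 1 of Oct4 mGS line 1, and 0 with the mean of all probe sets, with an offset of 16 or, of 121 that remained, without the 40% dimmest genes. The culture number as a replicate block lost 16, and the line number as a replicate block lost 12 of 130. Culture numbers did not pair samples: culture 1 deviations of different lines correlated at a median of 0.00248 (-0.438 to 0.389, 253 pairs), and lines of the same number in different groups at a median of 0.0850 (-0.645 to 0.795, 52 pairs). The 15 genes called in each of the 5 mGS types kept all calls against GS, except Crb3 in mGS without mGS line 2.

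The counts of members called against GS, and of GS against ES, stayed within 1.5 times, and leaving out single lines gave 17 to 18 for GS against ES, 21 to 22 for Sox2 mGS, 18 to 21 for Oct4 mGS, 17 to 23 for Dnmt mGS, 16 to 18 for Dmrt mGS and 14 to 23 for mGS. Sox2 mGS against iPS (10 called) gave 7 to 9. For Dnmt mGS against iPS, with 1 called, the count was 3 with the random block or the culture number as a replicate block, 2 with quantile normalization, centring, the dimmest genes left out or culture 1 of Oct4 mGS line 1 left out, 0 with only the groups compared, a trend or the line number as a replicate block, 5 with the feeder covariate, and 0 to 1 without single lines. For Dmrt mGS against iPS, with 0 called, it was 2 with the random block or the culture replicate block and 1 with centring or the feeder covariate. For Oct4 mGS against iPS, with 5 called, it was 0 with only the groups compared, 3 with centring or without the dimmest genes, 2 with the line number as a replicate block, and 1 to 9 without single lines. It was 1 for iPS against ES with the feeder covariate (0 called otherwise), and for Sox2 mGS against Oct4 mGS 1 with the random block and 0 to 1 without single lines. The factor lines against the knockdown lines, with 15 called, gave 9 with centring, 2 with the feeder covariate, and 7 to 21 without single lines. The cause of these changes was not tested. Fits that leave lines out also hold fewer samples, and their counts went both up and down. Matching shares of all genes are not given here, so these counts describe no trait particular to the members. Values below background limit what can be said of the 13 dim members and of the GS levels of Jam2, Cldn6, Cldn4 and Cldn7.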
